A study of Mus musculus with 686 samples.

Results

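miR-802 is a single-locus microRNA whose hairpin gives rise to a pair of mature strands, miR-802-5p and miR-802-3p. Both strands were followed here across the whole mouse spaceflight series, as 2 of the 1964 miRNA rows of the table, in 686 small RNA libraries from 13 tissues. All mice were female BALB/cAnNTac, aged 3 or 8 months. They belonged to 3 arms, namely flight (FL) to the International Space Station (ISS), a habitat ground control (HGC) kept in flight hardware at the density, temperature, humidity and carbon dioxide of the flight, and a vivarium ground control (VGC) in ordinary cages. Each arm was split by how it ended, 348 libraries coming from Live Animal Return (LAR) mice and 338 from ISS Terminal (TERM) mice. LAR flight mice spent 39.5 days on the ISS and were collected 2 to 4 days after splashdown, with tissues frozen directly. TERM mice were killed 22 to 24 days after launch, on board for FL and on the ground for HGC and VGC, and their carcasses were frozen whole and thawed before dissection, with only the spleen taken fresh. Time in orbit, return, anaesthesia and freezing therefore differ together between LAR and TERM and cannot be told apart. Each library is one tissue of one mouse, and most groups of one tissue, arm and protocol hold 8 to 10 mice. The groups with 2 to 5 mice are those of TERM pancreas, with 4 FL, 5 HGC and 2 VGC mice, and of brain, with 4 or 5. The TERM pancreas mice were all 3 months old, whereas LAR pancreas came from both ages.

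MicroRNAs are cut from a hairpin precursor, and the strand loaded into Argonaute pairs with messenger RNAs mainly through its seed, the bases just after the 5′ end, and lowers their output. miR-802 is known chiefly from metabolic organs: in liver it has been tied to obesity and to insulin sensitivity, in pancreatic acinar and islet cells to secretion, and in kidney to epithelial transport and inflammation. The precursor and both strands are shown because every count below is a count of reads assigned to these sequences. In the RefSeq table of GRCm38.p6, which is an older build than the one the authors mapped to, the Mir802 hairpin lies on the plus strand at chr16:93369720-93369816. It overlaps no other annotated gene there. The nearest protein-coding genes are Runx1, 543.571 kb before it, and Setd4, 213.641 kb after it, and the nearest other miRNA hairpin is 1842.277 kb away. Capitals mark the mature strands in the hairpin, and in the mature strands they mark the seed, bases 2 to 8.
Mir802 hairpin: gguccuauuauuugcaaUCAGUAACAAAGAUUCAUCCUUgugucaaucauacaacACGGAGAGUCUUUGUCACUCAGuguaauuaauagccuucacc
mmu-miR-802-5p: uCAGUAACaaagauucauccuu
mmu-miR-802-3p: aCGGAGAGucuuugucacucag
Among the 1679 mature mouse names of that table, 0 others carried the 5p seed and 0 others the 3p seed. The markers used beside the levels are miR-216a-5p, miR-216b-5p and miR-217-5p, which lie close together on chromosome 11 and are known from the acinar cells of the exocrine pancreas.
mmu-miR-216a-5p: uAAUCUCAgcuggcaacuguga
mmu-miR-216b-5p: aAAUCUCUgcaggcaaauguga
mmu-miR-217-5p: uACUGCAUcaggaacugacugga
None of these 3 shares the seed of miR-802-5p.

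Levels are given as counts per 1000000 miRNA counts of the same library (CPM). The libraries held 0.181 to 30.5 M miRNA counts (M, 1000000) with a median of 3.88 M, and pancreas was the shallowest of the 3 organs examined most closely, at 0.340 to 6.30 M. Some libraries stood apart from their label. When each library was compared with the median profile of every tissue over 523 tissue-variable miRNAs, miR-802 left out, 166 of 686 (24.2%) correlated best with a tissue other than the one labelled. This was so for 7 of 58 liver, 6 of 39 pancreas, 10 of 57 kidney and 46 of 57 mesenteric adipose tissue (MAT) libraries. In liver the same 7 libraries had less than 10% of their miRNA counts in miR-122-5p, the dominant hepatocyte miRNA, whereas the other 51 had 13.9% to 50.2%. The main results are therefore given over all libraries and again over libraries closest to their own tissue, hereafter own-profile libraries. In bulk tissue, fewer cells of a type and less RNA per cell cannot be told apart.

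With LAR and TERM pooled, pancreas carried the most miR-802 by median, followed by liver. Over all 39 pancreas libraries the median miR-802-5p level was 14218 CPM, or 1.42% of miRNA counts, and it ranked 19th of 1964 miRNAs by median. Liver followed at 1073 CPM over 58 libraries (rank 60), MAT at 88.5 CPM over 57, and kidney at 73.1 CPM over 57 (rank 218). The pooled MAT median hides a split by protocol, and within LAR the tissue next to pancreas was MAT, above liver. Of 28 LAR MAT libraries, 20 had exocrine markers at or over 1000 CPM and a median of 9920 CPM. Of 29 TERM MAT libraries, 26 had markers under that level and a median of 23.3 CPM. All other tissues had medians below 10 CPM, from 9.69 CPM in spleen and 8.81 CPM in gonadal adipose tissue (GAT) down to 1.73 CPM in heart and 1.23 CPM in lung. Subcutaneous (SCAT) and brown adipose tissue (BAT) lay between these, at 4.19 and 4.02 CPM, and 4 of 686 libraries had no miR-802-5p count, which allows up to 3 counts in each. Pancreas and liver also led for the 3p strand, with medians of 2064 and 263 CPM, whereas kidney at 11.1 CPM and MAT at 10.6 CPM stood in the other order.

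The spread inside a tissue depended on which libraries were counted. In own-profile libraries, liver was tight, with 51 libraries between 546 and 2026 CPM. Kidney lay between 30.2 and 192 CPM in 47 libraries, and pancreas between 409 and 37128 CPM in 33, its lowest value being LAR FL mouse 16. Over all libraries the ranges widened to 2.04 to 11913 CPM in liver, 1.20 to 851 CPM in kidney and 24.5 to 37128 CPM in pancreas.

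**Figure D1:**
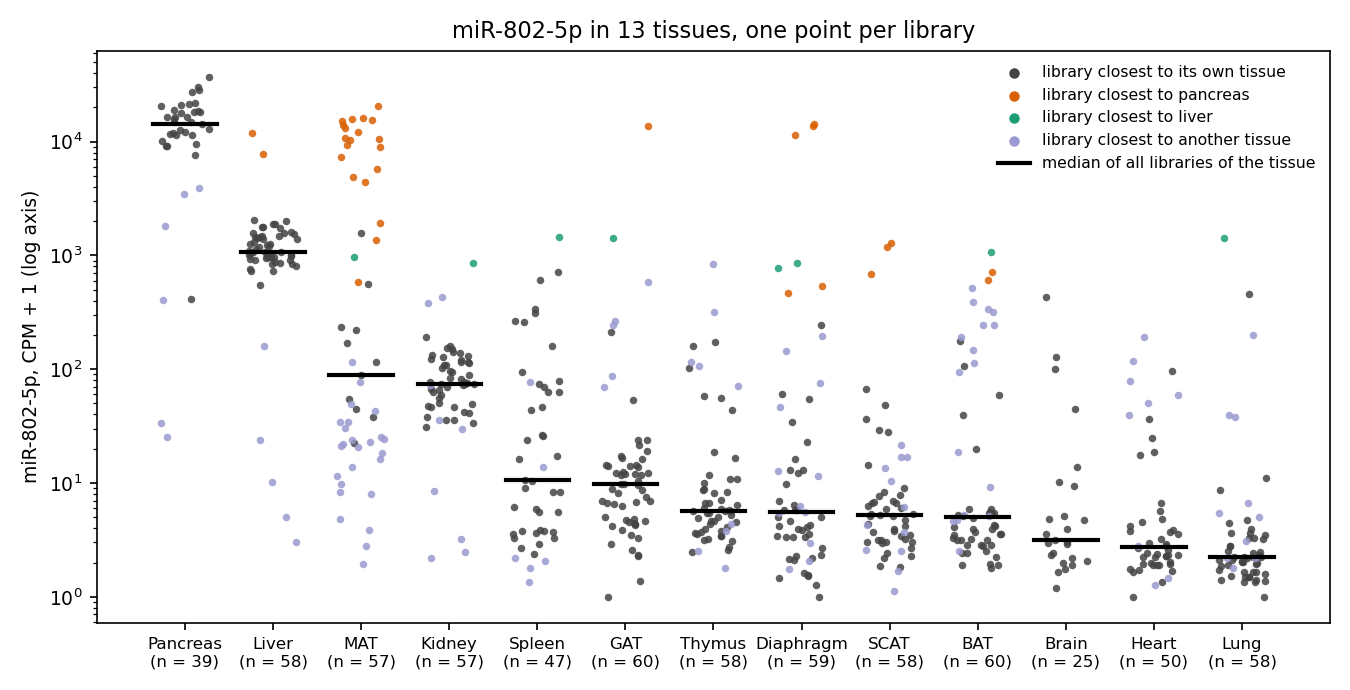
miR-802-5p in every library, as CPM plus 1 on a log axis, by labelled tissue, with points coloured by the tissue whose profile the library was closest to. By median over LAR and TERM together, pancreas (14218 CPM) and liver (1073 CPM) stand above the other tissues. Many high points in MAT and diaphragm are libraries closest to pancreas.

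Neighbours in the order of medians within each protocol were compared within mice. The test was a sign-flip permutation of the log2(CPM + 1) difference between both tissues of one animal (two-sided, Benjamini-Hochberg over the neighbours of a protocol). Liver exceeded kidney in LAR mice by 4.30 ± 2.03 on the log2 scale (SD, 27 of 28 mice, adjusted p = 0.0001) and in TERM mice by 3.27 ± 2.62 (26 of 28 mice, adjusted p = 0.0001). Pancreas exceeded liver in TERM mice by 3.38 ± 2.90 (10 of 11 mice, adjusted p = 0.037). That call was lost without libraries by miR-122-5p (3.38, permutation adjusted p = 0.052) and without the sequencing pools rich in libraries closest to another tissue (3.40, adjusted p = 0.054). It was also lost when scaled to the total of 5 RNA classes (0.91, adjusted p = 0.424). In LAR mice the tissue next to pancreas was MAT, and the difference of 2.16 ± 4.25 did not pass (17 of 26 mice, adjusted p = 0.061). Between own-profile libraries, pancreas exceeded liver by 3.10 ± 1.43 in LAR (17 of 18 mice, adjusted p = 0.0005) and by 4.23 ± 0.67 in TERM (10 of 10 mice, adjusted p = 0.020). Another 2 neighbour pairs passed over all libraries: kidney over SCAT in LAR (3.00 ± 2.96, 26 of 28 mice, adjusted p = 0.0001) and MAT over GAT in TERM (1.61 ± 3.13, 20 of 29 mice, adjusted p = 0.037). No other neighbouring pair with shared mice passed in either protocol, and for SCAT against brain and brain against heart in TERM no mouse had both libraries.

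In the 10 tissues other than liver, pancreas and kidney, most libraries with high miR-802 had high exocrine markers or high miR-122. Over the 21 libraries in which miR-216a-5p, miR-216b-5p and miR-217-5p summed to at least 10000 CPM, miR-802-5p lay between 4440 and 20407 CPM. Where the markers summed to 1000 to 10000 CPM it lay between 190 and 1919 CPM (24 libraries), and where they summed to 100 to 1000 CPM between 8.35 and 602 CPM (51 libraries). The 9 libraries with miR-122-5p at 10% or more of miRNA counts had 210 to 1448 CPM. In the 16 libraries with exocrine markers under 100 CPM and miR-122-5p at 1% to 10% it lay between 15.1 and 266 CPM with a median of 50.4 CPM, and 3 exceeded 100 CPM. By contrast, the 411 libraries with exocrine markers under 100 CPM and miR-122-5p under 1% had 0 to 114 CPM with a median of 2.96 CPM, and only 2 of them exceeded 100 CPM. Both of those were LAR thymus libraries closest to kidney, FL mouse 2 at 105 CPM and VGC mouse 13 at 114 CPM.

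The ratio of miR-802-5p to the exocrine markers covered the same range whichever label the library bore. In 33 libraries labelled otherwise but closest to pancreas, of which 20 were MAT, 5 diaphragm, 3 SCAT, 2 BAT, 2 liver and 1 GAT, there was a median of 39.9 miR-802-5p counts per 100 exocrine marker counts. The 33 own-profile pancreas libraries had a median of 45.3, with a range of 13.2 to 93.9 that contains the whole range of the others, 17.9 to 82.4. Their median miR-802-5p levels were 9239 and 15769 CPM. Likewise, 8 libraries labelled otherwise but closest to liver had 771 to 1448 CPM, within the range of own-profile liver. In MAT, the 20 LAR libraries with exocrine markers at or over 1000 CPM had a median of 9920.2 CPM, and the 8 LAR libraries under that level had a median of 25.5 CPM. How these markers came to be in these libraries was not tested.

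**Figure D2:**
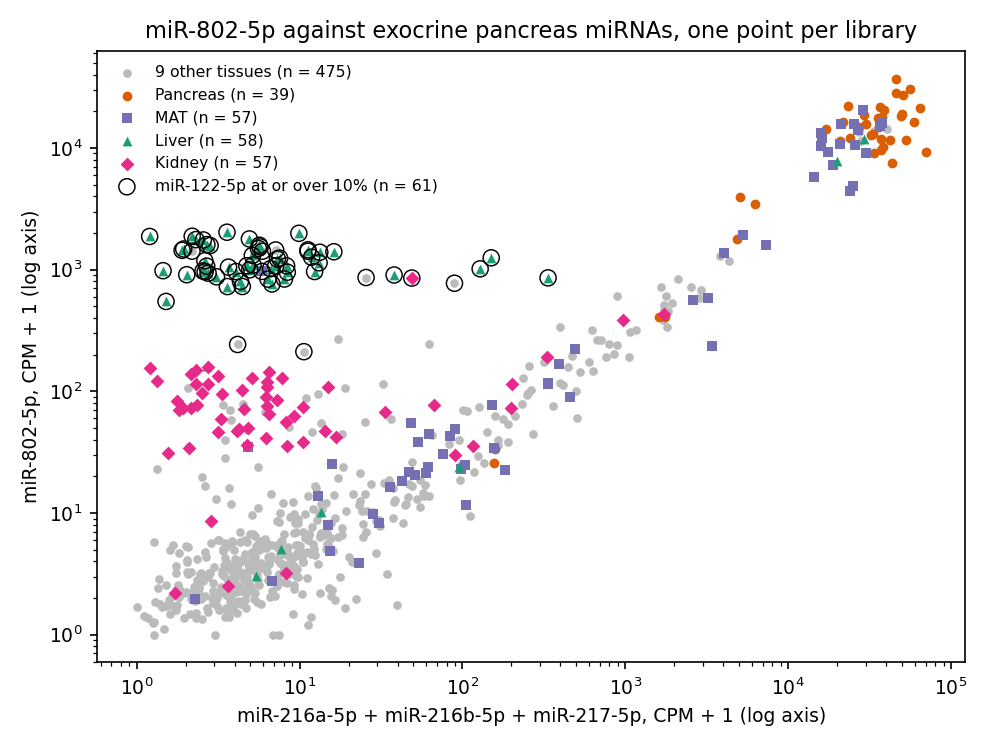
miR-802-5p against the summed level of miR-216a-5p, miR-216b-5p and miR-217-5p, both as CPM plus 1 on log axes, one point per library, with rings where miR-122-5p took at least 10% of miRNA counts. Libraries labelled with other tissues that have high exocrine markers lie along the same band as pancreas libraries, and liver forms its own group near 1000 CPM with low exocrine markers.

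Pancreas did not show an arm difference in miR-802 that passed the test. In LAR mice over all libraries, the lowest, median and highest miR-802-5p levels were 32.8, 10329 and 18032 CPM in 10 FL mice, 407, 13930 and 21541 CPM in 8 HGC mice and 3923, 14512 and 22027 CPM in 10 VGC mice. The lowest values came from libraries with few exocrine marker counts: FL mouse 13 had 158 CPM of them against an FL median of 32684 CPM. edgeR's quasi-likelihood test with Benjamini-Hochberg adjustment, which gives all arm, age and protocol p-values below, put FL vs. HGC at a log2 fold change of -0.53 ± 0.63 (SE, adjusted p = 0.773). In that contrast 0.0% of the 814 miRNAs tested were called. FL vs. VGC was -0.70 ± 0.60 (edgeR adjusted p = 0.569, against 1.84% called) and HGC vs. VGC was -0.17 ± 0.63 (adjusted p = 1.0). Own-profile medians were 11914, 16298 and 14806 CPM in FL, HGC and VGC, and the 3 groups overlapped. Between own-profile libraries FL vs. HGC was -0.24 ± 0.40 and FL vs. VGC -0.34 ± 0.38 (edgeR adjusted p = 0.825 and 0.812). The 3p strand had -0.15 ± 0.63 and -0.30 ± 0.60 in these contrasts over all libraries (adjusted p = 0.958 and 0.827), and 0.16 ± 0.39 and 0.12 ± 0.37 between own-profile libraries (adjusted p = 0.870 and 0.956).

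TERM pancreas had the highest levels of the series. The 5 HGC mice had miR-802-5p at 18897, 27401, 28152, 30300 and 37128 CPM. The 4 FL mice had 24.5, 10093, 16463 and 21132 CPM, and the 2 VGC mice had 14726 and 20579 CPM. All HGC mice except the lowest lay above every FL and VGC mouse. The FL value of 24.5 CPM was from mouse 1, whose library was closest to MAT and held 155 CPM of exocrine markers, against 21587 to 64448 CPM in the other FL mice. FL vs. HGC was -1.08 ± 0.90 on the log2 scale (edgeR adjusted p = 0.636, against 0.0% of 702 miRNAs called) over all libraries and -0.74 ± 0.43 without mouse 1 (adjusted p = 0.797). An exact permutation test of log2(CPM + 1) gave p = 0.032 over all libraries, adjusted to 0.190 over 36 tests, and p = 0.071 without mouse 1. The 3p estimate over all libraries had the same sign and did not pass either, at -1.17 ± 0.92 (edgeR adjusted p = 0.603).

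Liver was higher in FL than in ground controls in LAR mice, but not beyond the threshold. Over all libraries, miR-802-5p in LAR liver had a lowest, median and highest level of 906, 1815 and 11913 CPM in 10 FL mice, 22.9, 1074 and 1602 CPM in 9 HGC mice and 4.01, 1003 and 1985 CPM in 10 VGC mice. FL mouse 4 at 11913 CPM and FL mouse 2 at 7815 CPM were closest to pancreas and had 29193 and 19958 CPM of exocrine markers, whereas own-profile FL livers had at most 12.3 CPM. FL vs. HGC was 1.00 ± 0.61 (edgeR adjusted p = 0.427, against 6.11% of 884 miRNAs called) and FL vs. VGC was 1.19 ± 0.59 (adjusted p = 0.265, against 4.98% called). Among own-profile livers, 8 in each arm, medians were 1668 CPM in FL, 1128 CPM in HGC and 1207 CPM in VGC, and the ranges overlapped. There the log2 fold change was 0.38 ± 0.16 for FL vs. HGC (unadjusted p = 0.027, adjusted p = 0.232) and 0.38 ± 0.16 for FL vs. VGC (unadjusted p = 0.026, adjusted p = 0.275). The exact permutation test gave p = 0.0021 for FL vs. HGC over all libraries, adjusted to 0.077 over 36 tests, the lowest adjusted value of that family. That difference of 1.60 includes both FL livers closest to pancreas and HGC mouse 12, closest to spleen at 22.9 CPM. Between own-profile livers, which leave out all of these, the FL mean of log2(CPM + 1) went from 11.14 to 10.62 and the HGC mean from 9.54 to 10.16, and the difference was 0.46 (exact permutation p = 0.015, adjusted p = 0.111). With pool as a term, the own-profile edgeR difference was 0.14 for FL vs. HGC and 0.0098 for FL vs. VGC, both at an adjusted p of 1.0.

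TERM liver had smaller point estimates for 5p, although LAR and TERM were not tested against each other for the arm difference. Own-profile medians of miR-802-5p were 967, 978 and 1067 CPM in 10 FL, 9 HGC and 8 VGC mice. FL vs. HGC was 0.06 ± 0.15 (edgeR adjusted p = 0.978) and FL vs. VGC 0.11 ± 0.15 (adjusted p = 0.849), against 0.19 ± 0.52 and 0.24 ± 0.54 over all libraries (adjusted p = 0.993 and 0.870). Over all libraries those contrasts called 0.345% and 7.24% of 870 miRNAs and HGC vs. VGC 3.56%, with neither strand among them. For the 3p strand the own-profile values were 0.49 ± 0.21 (adjusted p = 0.490) and 0.58 ± 0.22 (adjusted p = 0.223), and those over all libraries were 0.61 ± 0.54 (adjusted p = 0.902) and 0.70 ± 0.55 (adjusted p = 0.561). Own-profile LAR livers had 3p differences of 0.39 ± 0.24 (edgeR adjusted p = 0.492) and 0.54 ± 0.24 (adjusted p = 0.293). Divided by miR-122-5p of the same library, miR-802-5p in liver gave no arm difference past the threshold either, and dividing by the 3 exocrine markers gave none in pancreas. The lowest p-values of these 12 ratio tests over all libraries were those of pancreas LAR FL vs. VGC (-0.72 on the log2 scale, permutation p = 0.015, adjusted p = 0.110) and HGC vs. VGC (-0.85, exact permutation p = 0.018, adjusted p = 0.110). Between own-profile libraries these were -0.70 and -0.76, both at an adjusted p of 0.312 (exact permutation).

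**Figure D3:**
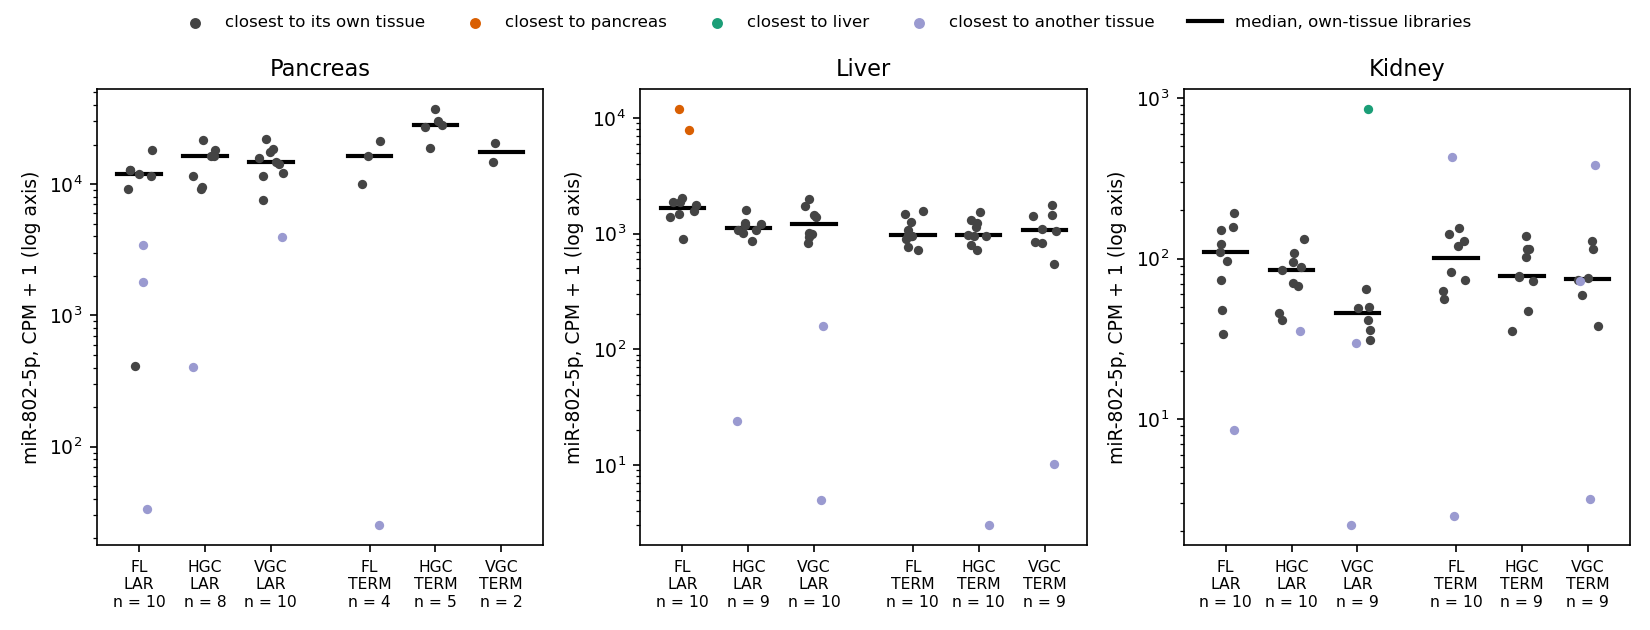
miR-802-5p in every pancreas, liver and kidney library, in CPM plus 1 on a log axis, by arm and protocol, coloured by the tissue whose profile the library was closest to, with bars at the own-profile medians. The 2 highest LAR FL liver points are closest to pancreas, and the highest LAR VGC kidney point, at 851 CPM, is closest to liver.

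Of liver, pancreas and kidney, kidney was the one in which a strand of miR-802 passed the test between arms, once libraries closest to another tissue were left out, and the call did not hold with the sequencing pool as a term. All 10 FL kidneys of the LAR mice had, in rising order, miR-802-3p at 2.01, 3.27, 13.1, 13.7, 22.4, 27.5, 28.8, 29.4, 34.7 and 51.5 CPM, the lowest from mouse 3, whose library was closest to diaphragm. The 9 VGC kidneys had 0, 2.78, 4.98, 5.32, 6.19, 6.20, 7.21, 7.42 and 240 CPM. The VGC value of 240 CPM was from mouse 4, whose library was closest to liver, had 15.2% of its miRNA counts in miR-122-5p and had 851 CPM of miR-802-5p. Over all libraries FL vs. VGC was -0.34 ± 0.73 for 3p and -0.31 ± 0.61 for 5p (edgeR adjusted p = 0.913 and 0.910), against 0.203% of 987 miRNAs called. Without VGC mouse 4 alone, 3p became 2.14 ± 0.51 (adjusted p = 0.075) and 5p became 1.34 ± 0.46 (adjusted p = 0.531).

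Between 9 FL and 6 VGC own-profile kidneys, miR-802-3p was higher in FL by 1.98 ± 0.37 on the log2 scale (edgeR adjusted p = 0.0032), in a contrast that called 0.649% of 925 miRNAs. In all 24 fits that left out 1 own-profile library, the 3p difference stayed between 1.79 and 2.14 with an adjusted p of at most 0.024. Only 1 FL kidney, mouse 2 at 3.27 CPM, lay inside the VGC range of 2.78 to 7.42 CPM. DESeq2 over all libraries, which by default replaces outlying counts in large groups, gave 1.93 (adjusted p = 0.0016, with 1.22% called), and edgeR without the sequencing pools rich in such libraries gave 2.19 (adjusted p = 0.015, with 1.6% called). An exact permutation test on log2(CPM + 1) of the same 15 libraries gave p = 0.0036, adjusted to 0.079 over 36 tests. The 29 LAR kidneys were sequenced in 21 pools, of which 6 held more than one arm. With pool as a term, which leaves few degrees of freedom, the own-profile 3p difference was 1.77 ± 0.49 (edgeR unadjusted p = 0.0022, adjusted p = 1.0), and 0 of 925 miRNAs were called, with 18 at an unadjusted p under 0.05. Over all libraries it was then 2.59 ± 0.80 (adjusted p = 0.873). Without the pool term, the 5p strand differed in the same direction by 1.15 ± 0.31 (adjusted p = 0.096), with own-profile medians of 108 CPM in FL and 44.5 CPM in VGC.

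Among own-profile kidneys the habitat controls lay between by median. miR-802-3p had own-profile medians of 27.5, 12.6 and 5.76 CPM in FL, HGC and VGC. FL vs. HGC was 0.77 ± 0.31 (edgeR adjusted p = 0.321) and HGC vs. VGC 1.21 ± 0.36 (adjusted p = 0.114) for 3p, and 0.27 ± 0.26 (adjusted p = 0.696) and 0.88 ± 0.30 (adjusted p = 0.176) for 5p. Over all libraries, VGC mouse 4 included, HGC vs. VGC had the opposite sign, at -1.12 ± 0.74 for 3p and -0.59 ± 0.61 for 5p (edgeR adjusted p = 0.519 and 0.721), and FL vs. HGC was 0.78 ± 0.71 and 0.28 ± 0.60 (adjusted p = 0.819 and 0.979). Marker levels in these kidneys were low: exocrine markers had medians of 1.51, 5.21 and 3.78 CPM in FL, HGC and VGC, with 1 FL library, mouse 4, at 329 CPM, and miR-122-5p was at most 0.136%, 0.0147% and 0.0277%. miR-192-5p, an epithelial miRNA of kidney and gut, had medians of 36159, 22959 and 25037 CPM in FL, HGC and VGC, lowest in HGC. miR-375-3p, known from islets and other endocrine and epithelial cells, had 479, 469.6 and 319 CPM. Whether these epithelial levels bear on the miR-802 difference was not tested. TERM kidneys over all libraries had lowest, median and highest 5p levels of 1.5, 100.4 and 427 CPM in 10 FL mice, 34.5, 76.7 and 138 CPM in 9 HGC mice and 2.19, 73.1 and 382 CPM in 9 VGC mice. In TERM kidney the 3p difference of FL vs. VGC was 0.48 ± 0.54 (adjusted p = 0.994) between own-profile libraries. Whether LAR and TERM differ in this was not tested.

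Over all libraries, none of the 18 arm contrasts in the 3 organs called miR-802-5p or miR-802-3p with edgeR, and none reached an unadjusted p under 0.05, against 1.4% of all tests of a miRNA in those contrasts called and 1.11% in LAR kidney HGC vs. VGC. DESeq2 called 5p in 0 of the 18 and 3p in 1, and 3 contrasts of each strand had an unadjusted p under 0.05. Restricted to own-profile libraries, edgeR gave 0 of 18 for 5p and 1 of 18 for 3p, with 4 and 6 contrasts at an unadjusted p under 0.05.

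**Figure D4:**
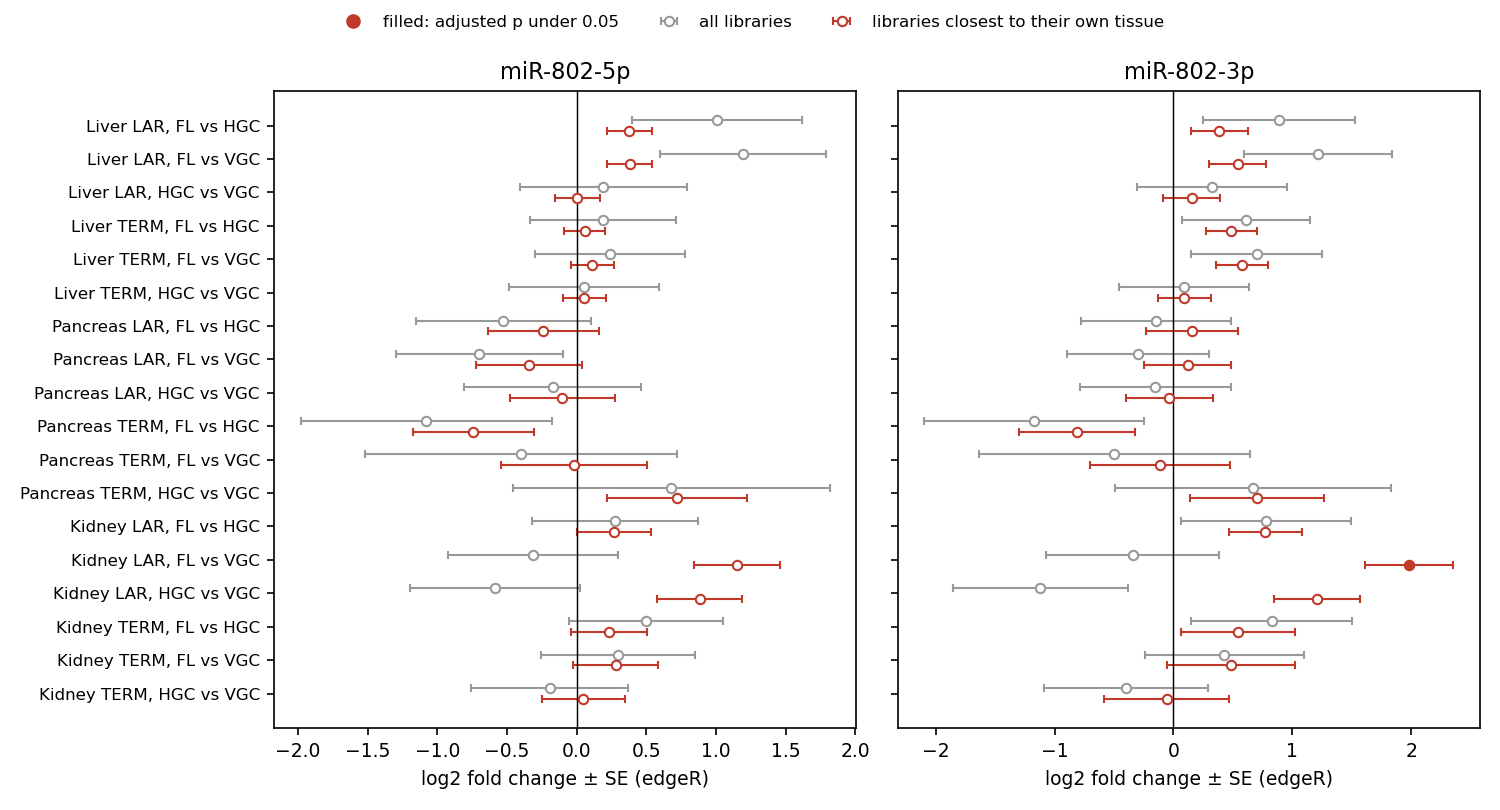
edgeR log2 fold change ± SE of both strands for the 18 arm contrasts in liver, pancreas and kidney, over all libraries (grey) and own-profile libraries (red), with filled points where the adjusted p was under 0.05. The one filled point is miR-802-3p in LAR kidney, FL vs. VGC, at 1.98, and grey error bars are wider than red ones throughout liver.

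No age difference in miR-802 passed the threshold in these organs. None of the 5 contrasts of 8 vs. 3 months, adjusted for arm, called either strand, against 0.0218% of all tests called, and 1 had an unadjusted p under 0.05 for each strand. That one was LAR kidney, at 1.05 ± 0.50 for 5p (unadjusted p = 0.043, edgeR adjusted p = 0.419, against 0.101% called), and 0.38 ± 0.22 (adjusted p = 0.651) between own-profile libraries. Own-profile LAR kidneys had 5p medians of 72.5 and 135 CPM in 5 FL mice of 3 months and 4 of 8 months. Their counterparts were 76.4 and 88.0 CPM in HGC and 37.9 and 56.2 CPM in VGC, the last from 2 mice. Whether the FL vs. HGC difference itself depended on age was tested as an interaction in 5 settings, and 0 passed for either strand, against 0.86% of miRNAs called in LAR pancreas and 0.0% in the other 4 settings. The largest own-profile estimate for 5p was 1.01 ± 0.49 in LAR kidney (edgeR adjusted p = 0.693), and for 3p TERM kidney had -1.03 ± 0.96 (adjusted p = 0.839).

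TERM livers had less and TERM pancreases more miR-802 than LAR ones among own-profile libraries. miR-802-5p in liver had medians of 978 CPM in 27 TERM and 1314 CPM in 24 LAR libraries, a log2 fold change of -0.36 ± 0.084 (edgeR adjusted p = 0.0039, against 5.5% of miRNAs called). It was -0.43 ± 0.34 over all libraries (adjusted p = 0.824, against 2.83% called), and -1.10 ± 0.33 when scaled to the total of 5 RNA classes (adjusted p = 0.0063, with 439 of 954 miRNAs called, 16 of them higher in TERM). In pancreas the medians were 20855 CPM in 10 TERM and 12904 CPM in 23 LAR libraries, at 0.75 ± 0.27 (adjusted p = 0.031), where 31.3% of miRNAs were called. At 3 months alone, the age of every TERM pancreas, it was 0.62 ± 0.23 between own-profile libraries (edgeR adjusted p = 0.043) and 0.73 ± 0.62 over all (adjusted p = 0.429). Leaving out 1 own-profile library kept the liver call in all 51 fits, whereas the pancreas call was lost in 6 of 33, at adjusted p up to 0.069. These were the fits without TERM FL mouse 4, TERM HGC mice 1, 4 and 5, LAR HGC mouse 16 or LAR VGC mouse 12. Scaled to the total of 5 RNA classes instead of miRNA counts, the pancreas difference over all libraries was -0.09 (adjusted p = 0.885), against 0.69 ± 0.51 with miRNA scaling (adjusted p = 0.333, 21.2% called). Kidney showed 0.09 ± 0.17 (adjusted p = 0.876), and over all libraries -0.03 ± 0.35 with 1.09% called. The 3 organs together had 7.52% of all tests called over all libraries, and miR-802 was called in none of them.

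In the 10 other tissues miR-802 was called between arms in 3 of 60 contrasts, the same 3 for both strands, against 0.411% of all tests called. In each, the call was lost when the single highest library was left out, and in 2 of them when other libraries were. GAT FL vs. VGC in LAR mice was -6.51 ± 1.68 for 5p (edgeR adjusted p = 0.032, against 3.18% called). The highest VGC libraries were mouse 1 at 13797 CPM, closest to pancreas with 33830 CPM of exocrine markers, mouse 4 at 1415 CPM, closest to liver with 35.0% miR-122-5p, and mouse 2 at 266 CPM with 9.68% miR-122-5p. The other 7 VGC libraries had 1.90 to 10.9 CPM, and the 10 FL libraries had 0.386 to 86.4 CPM. Without VGC mouse 1 it was -4.72 (adjusted p = 0.111). The call was lost in 7 of 30 such fits, the others being those without FL mouse 1, 2, 3, 11, 12 or 13, at adjusted p up to 0.062 and values of -6.43 to -6.25. Over own-profile libraries it was 0.29 (edgeR adjusted p = 0.926).

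Lung gave the other 2. In LAR mice FL vs. HGC was 6.10 ± 1.47 (edgeR adjusted p = 0.030, against 1.97% called), with FL mouse 5 at 452 CPM and the other 9 FL libraries at 0.653 to 10.1 CPM. That library was closest to lung, as labelled, and held 1835 CPM of exocrine markers, and without it the difference was 1.67 (adjusted p = 0.649). The call was lost in 9 of 30 such fits, the others being those without HGC mouse 1, 2, 3, 4, 11, 12, 13 or 16, at adjusted p up to 0.065 and values of 5.93 to 6.27. It counts among the own-profile libraries, which called FL vs. HGC (6.25 ± 1.16, adjusted p = 0.0024, 1.77% called) and FL vs. VGC (4.95 ± 1.18, adjusted p = 0.042, 0.787% called). Without it, the own-profile differences were 1.64 ± 0.51 (edgeR adjusted p = 0.217) and 0.27 ± 0.50 (adjusted p = 0.965). No other of the 27 own-profile libraries removed the FL vs. HGC call when left out, whereas the FL vs. VGC call was lost in 10 of 27 fits, also without HGC mouse 11 or any 1 of the 8 VGC libraries (mice 1, 2, 4, 5, 11, 12, 13 and 14), at adjusted p up to 0.124 without a VGC library. In TERM mice FL vs. HGC was -7.92 ± 1.51 (adjusted p = 0.0068, against 3.0% called), with HGC mouse 5 at 1415 CPM, 36.1% miR-122-5p and a profile closest to liver, and the other 8 HGC libraries at 0.711 to 36.9 CPM. Without it the difference was -1.83 (adjusted p = 0.148).

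In the age contrasts of these tissues 2 of 19 called 5p, against 0.869% of all tests. In TERM MAT 8 vs. 3 months was -4.71 ± 1.19 (edgeR adjusted p = 0.011, against 12.8% called), and -2.16 (adjusted p = 0.119) without FL mouse 2, a 3-month library at 10362 CPM with 15931 CPM of exocrine markers. In TERM SCAT it was 4.15 ± 1.08 (adjusted p = 0.030, against 2.0% called), with the highest values in 2 libraries of 8-month mice, FL mouse 14 at 1286 CPM and VGC mouse 14 at 680.0 CPM, both closest to pancreas. Without the first it was 2.25 (adjusted p = 0.206) and without the second 2.29 (adjusted p = 0.345). The call was lost in 12 of 29 such fits, the others being those without FL mouse 1, 2, 3, 4 or 5, HGC mouse 13 or 16, or VGC mouse 1, 3 or 5, at adjusted p up to 0.074 and values of 3.92 to 4.24. Among own-profile libraries age was called in 6 TERM MAT libraries (-2.98 ± 0.74, adjusted p = 0.0007, 20.3% called). Only 1 of the 6, HGC mouse 16 at 21.5 CPM, was from an 8-month mouse, and the 3 HGC libraries of 3 months had 43.6, 168 and 221 CPM. The highest of the 6 was VGC mouse 2 of 3 months, at 559 CPM with 2602 CPM of exocrine markers. It was the only VGC library, and FL mouse 1 was the only FL one. With arm as a term each was fitted by its own arm and could not inform the age value. That value was -2.97 without VGC mouse 2 and -2.98 without FL mouse 1. It compared HGC mouse 16 with the 3 HGC libraries of 3 months. Leaving out 1 of those 3 gave -2.81 (mouse 1), -3.50 (mouse 2) and -2.69 (mouse 3), and the call was lost without mouse 1. Without HGC mouse 16 age could not be fitted. Age was also called in 25 own-profile LAR thymus libraries (-2.35 ± 0.63, edgeR adjusted p = 0.014, 14.8% called), of which 11 were of 3 months and 14 of 8 months. That call was lost without VGC mouse 5, a 3-month library at 174 CPM with 315 CPM of exocrine markers (-1.12, adjusted p = 0.114), and without FL mouse 1, a 3-month library at 54.9 CPM (-1.72, adjusted p = 0.072). For 3p, 7 of 25 such fits did not pass, at edgeR adjusted p up to 0.294, and the values ranged from -2.34 to -0.96. TERM vs. LAR was called in 1 of 10 tissues, against 6.71% of all tests, which was MAT at -4.58 ± 0.94 (adjusted p = 0.0001, against 36.4% called). Exocrine markers summed to at least 1000 CPM in 20 of 28 LAR and 3 of 29 TERM MAT libraries. Over the own-profile MAT libraries, 5 LAR and 6 TERM, it was -0.63 (adjusted p = 0.940). Among them, LAR FL mouse 11 and LAR HGC mouse 1 held 7338 and 3419 CPM of exocrine markers. The MAT profile was the median of all MAT libraries, most of them closest to another tissue. Own-profile MAT is therefore not MAT free of these markers.

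The balance between strands was measured as the share of miR-802-5p in the counts of both strands, which does not depend on how a library is scaled. The 5p strand dominated in every liver, pancreas and kidney library with at least 20 counts, at 67.7% to 95.6%. In LAR mice it was 81.1% ± 4.34 in 28 livers, 85.8% ± 4.71 in 28 pancreases and 84.5% ± 5.18 in 28 kidneys (mean ± SD over libraries). TERM mice gave 81.9% ± 5.26 in 28 livers, 86.1% ± 3.93 in 11 pancreases and 87.1% ± 5.39 in 26 kidneys. The liver minus pancreas difference was -4.67 percentage points in LAR (two-sided permutation, adjusted p = 0.0013 over 6 tests) and -4.17 in TERM (adjusted p = 0.025, or 0.053 between own-profile libraries). The liver minus kidney difference was -3.33 points in LAR (permutation adjusted p = 0.025) and -5.14 in TERM (adjusted p = 0.0019). Since organs share mice, the differences were also taken within mice by sign-flip permutation. Liver minus pancreas was then -4.23 ± 5.22 points in LAR (SD, lower in 22 of 26 mice, adjusted p = 0.0014) and -5.06 ± 5.56 in TERM (10 of 11 mice, permutation adjusted p = 0.032). Liver minus kidney within mice was -3.13 ± 6.69 points in LAR (20 of 27 mice, permutation adjusted p = 0.035) and -4.60 ± 6.80 in TERM (16 of 25 mice, adjusted p = 0.0053). The pancreas minus kidney difference over libraries did not pass, at a value of 1.34 points in LAR (permutation adjusted p = 0.373) and -0.97 in TERM (adjusted p = 0.591). The 8 libraries labelled otherwise but closest to liver had a median 5p share of 76.4%, against 81.2% in own-profile liver. The 33 closest to pancreas had 86.0%, against 85.3% in own-profile pancreas.

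**Figure D5:**
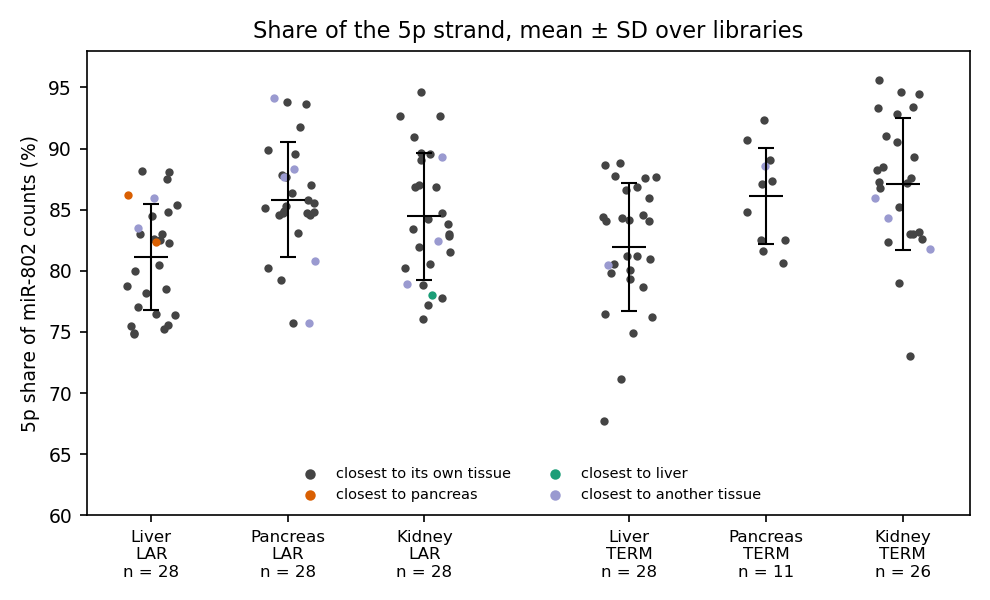
Share of miR-802-5p in the counts of both miR-802 strands, in percent, for each liver, pancreas and kidney library with at least 20 counts, by protocol, with the mean ± SD. Liver means are 81.1% and 81.9%, below the 4 means of pancreas and kidney, with wide overlap between libraries.

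Ranking 601 miRNAs by the correlation of their median log2(CPM + 1) over the 13 tissues with that of miR-802-5p put miR-802-3p first, at r = 0.991. The 13 points are tissue medians that share library depth and the libraries closest to other tissues, and the correlations are descriptions. miR-101c (r = 0.901), miR-148a-5p (0.876), miR-29c-3p (0.842) and miR-148a-3p (0.827) came next, followed by miR-152-5p, miR-101a-5p, both strands of miR-6969 and miR-152-3p (0.767). Of the 10, 9 had their highest median in pancreas. miR-148a-3p, known from pancreas and liver, had 20490 CPM in pancreas, 2159 CPM in liver and 95.9 CPM in kidney. miR-152-3p, of the same family, had 3212, 323 and 353 CPM. These 2 share a seed with each other, though not with miR-802-5p.
mmu-miR-148a-3p: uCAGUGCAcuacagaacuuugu
mmu-miR-152-3p: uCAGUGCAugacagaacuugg
Of the 10, 8 were also among the 10 most similar when only own-profile libraries were used.

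A list of 20 miRNAs known from metabolism in liver, pancreas, muscle and fat was examined beside miR-802. All 20 were tested in each of the 18 arm contrasts of the 3 organs. miR-375-3p rose in LAR liver by 7.71 ± 1.77 for FL vs. HGC (edgeR adjusted p = 0.015) and by 5.07 ± 1.49 for FL vs. VGC (adjusted p = 0.045), as 1 of 20 members against 6.11% and 4.98% of all miRNAs called. It stood at 40496 and 90368 CPM in FL mice 2 and 4, the libraries closest to pancreas, and at 8.35 to 29.6 CPM in the other 8 FL livers. miR-122-5p fell by 7.39 ± 1.67 in LAR kidney for HGC vs. VGC (edgeR adjusted p = 0.038), where VGC mouse 4 held 15.2%, as 1 of 20 against 1.11% called. No other member of the list was called in any of the 18 contrasts, and no member was called among own-profile libraries, where at most 0.649% of all miRNAs were called. Over the 18 contrasts the median log2 fold change of the list lay between -0.25 and 0.22, against -0.11 to 0.32 for the median over all miRNAs tested. The largest gaps were in pancreas, as in LAR FL vs. VGC, where the list's median was -0.25 against 0.26 over all libraries and 0.05 against 0.14 over own-profile ones. In TERM pancreas FL vs. VGC it was -0.13 against 0.29 over all libraries and 0.03 against 0.17 over own-profile ones.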

How the data were processed

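Small RNA was sequenced on BGISEQ from MGI kit libraries, 1 library per tissue and mouse. The authors mapped the reads with miRMaster to GRCm39 and miRBase. The miRNA table they deposited holds estimated counts per mature miRNA, in which 0.790% of values are fractional and no miR-802 value is. The tables the authors deposited for other RNA classes hold counts, and rRNA, snRNA, snoRNA and tRNA were added to miRNA for an alternative total. Samples were grouped by GEO's labels. Here values were rounded, miRNAs with at least 5 counts in 10% of the libraries of any arm were kept, and each tissue and protocol was fitted with edgeR 4.0.16 in R 4.3.3 (TMM factors, quasi-likelihood, arm as the only term; age contrasts adjusted for arm, TERM vs. LAR over both protocols). Calls required an adjusted p (Benjamini-Hochberg, over every miRNA kept in the fit) under 0.05. CPM divides by the miRNA counts of a library. Permutation tests used log2(CPM + 1), exact or with 100000 resamples (scipy 1.17.1). A library counted as closest to the tissue whose median profile correlated best with it. Tissue profiles were medians of these same libraries.

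Alternatives were DESeq2 1.42.0, other size factors and filters, age or mouse number as a term, and libraries left out by profile, miR-122-5p under 10% in liver or at least 10% elsewhere, or pool (10 of 44 sequencing pools, with 152 libraries, in which over 1 in 3 were closest to another tissue). No pool held more than 4 libraries of one of the 3 organs and a protocol, and pools with more than one arm numbered 6 of 21 and 3 of 22 for LAR and TERM kidney, 5 of 22 and 4 of 21 for liver, and 3 of 21 and 0 of 11 for pancreas. Pool was fitted as a term except in TERM liver and TERM pancreas, where the arm terms could not all be estimated beside it. Sample titles and column headers do not name the pool, which is to be read as an assigned batch. Same-numbered mice of different arms are different animals. On simulated counts for liver LAR FL vs. HGC, the fit recovered 49% of 2-fold and 95% of 4-fold changes. The simulated libraries included none closest to another tissue, their spread was capped, and only well-counted miRNAs were changed. These shares therefore do not say how often a change in miR-802 would be recovered in the real libraries. Named miRNAs were both miR-802 strands, the 10 most similar across tissues, tissue markers and a list of 20 metabolic miRNAs. The members and lists were chosen with earlier results of these data known. Libraries were not stated to be technical repeats. With 1 library per tissue and mouse, p-values measure the spread between libraries. Differences between mice, dissection, pool and libraries closest to another tissue are mixed in that spread.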

Additional observations from a re-analysis of the deposited data

Results flagged for a closer look

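In groups of 4 to 10 libraries, the highest or lowest value was set against its nearest neighbour by Dixon's ratio at its 95% critical value. Of 34 tests of liver, pancreas and kidney, each of one group and strand, 9 had such a library. The rate of 1 in 20 set by that critical value holds for independent, normally distributed values. These were untransformed CPM, and both strands come from the same libraries, so that rate does not apply here. Another 9 came from 12 tests of lung and GAT, whose groups were taken from contrasts already called and say nothing about how often this occurs. Values without a single library are given in the comparisons for some of these and were not computed for the others, and why they stand apart was not tested.

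In liver they were LAR FL mouse 4 with miR-802-3p at 2555 CPM (closest to pancreas), LAR HGC mouse 12 with 5p at 22.9 CPM (closest to spleen) and TERM HGC mouse 11 with 5p at 2.04 CPM (closest to heart). In kidney, LAR VGC mouse 4 had 5p at 851 CPM and 3p at 239.5 CPM and was closest to liver. TERM FL mouse 16 had 5p at 427 CPM and 3p at 79.6 CPM, with 1722 CPM of exocrine markers and a profile closest to thymus. TERM VGC mouse 16 had 5p at 382 CPM, with 972 CPM of exocrine markers and a profile closest to spleen. TERM HGC mouse 14 had 3p at 29.1 CPM and was closest to kidney, as labelled, so it stays among the own-profile libraries.

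In lung, LAR FL mouse 5 had 5p at 452 CPM and 3p at 72.2 CPM with 1835 CPM of exocrine markers and was closest to lung. TERM HGC mouse 5 had 5p at 1415 CPM and 3p at 408 CPM and was closest to liver. LAR HGC mouse 1 had 3p at 0.415 CPM, the highest of its group, which is a level of few counts. In GAT, LAR VGC mouse 1 had 5p at 13797 CPM and 3p at 2414 CPM and was closest to pancreas, and LAR FL mouse 4 had 5p at 86.4 CPM and 3p at 16.3 CPM and was closest to kidney.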

How the results depend on the processing

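Values below are log2 fold changes unless named otherwise, for 5p where no strand is named. Only results that moved across the threshold or changed sign are listed, and the cause was not tested. In LAR kidney, FL vs. VGC (3p, then 5p; -0.34 and -0.31 in the report) was 1.93 and 1.18 with DESeq2, 1.43 and 1.10 scaled to 5 RNA classes, 2.14 and 1.34 without libraries by miR-122, 1.98 and 1.15 by profile, 2.19 and 1.36 without mismatched pools, and 0.19 for 3p with age as a term. HGC vs. VGC was 1.15 and 0.92, 0.38 and 0.62, 1.32 and 1.02, 1.21 and 0.88, and 1.37 and 1.04 under the first 5 of these.

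With library size alone, TERM vs. LAR in kidney was 0.089, HGC vs. VGC was -0.026 in LAR liver and -0.0078 (3p) and -0.058 in TERM liver, and 8 vs. 3 months in LAR pancreas was -0.016 for 3p. Without a filter, TERM vs. LAR in kidney was 0.022. Scaled to 5 RNA classes, HGC vs. VGC in TERM kidney was 0.0015, 8 vs. 3 months in liver was -0.11 in LAR and 0.10 in TERM, TERM vs. LAR was -1.10 in liver and -0.0097 (3p) and -0.092 in pancreas, and FL vs. VGC in TERM pancreas was 0.73 (3p) and 0.59. On that scale the 5p medians (counts per 1000000 counts of those classes) were 334 in pancreas, 131 in liver, 8.72 in kidney, 2.52 in MAT, 0.419 in thymus, 0.206 in GAT and 0.125 in SCAT, 1 TERM neighbour pair differed, and pancreas exceeded liver in TERM by 0.91 (permutation adjusted p = 0.424).

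Without libraries by miR-122, TERM vs. LAR was 0.36 (3p) and 0.47 in kidney and -0.36 in liver, 8 vs. 3 months in TERM liver was 0.14, 1 TERM neighbour pair differed and pancreas exceeded liver in TERM by 3.38. By profile, TERM vs. LAR was 0.087 in kidney, -0.36 in liver, 0.75 in pancreas and -0.63 in MAT. Likewise by profile, 8 vs. 3 months was -0.066 (3p) in TERM kidney, 0.14 in TERM liver, -0.18 (3p) and -0.085 in LAR pancreas and 0.69 in TERM SCAT. Arm contrasts by profile were 0.29 (GAT LAR FL vs. VGC), -0.37 (lung TERM FL vs. HGC), 0.048 (kidney TERM HGC vs. VGC) and, for 3p in LAR pancreas, 0.16 (FL vs. HGC) and 0.12 (FL vs. VGC). The age interaction was -0.84 and -1.03 (3p) in TERM kidney and -0.020 (3p) in LAR liver, 0 other tissues were called for TERM vs. LAR, and 1 neighbour pair differed in each protocol. The 5p share of TERM liver minus pancreas was -3.87 by profile and with at least 100 counts. Without mismatched pools, HGC vs. VGC in TERM kidney was 0.43 (3p) and 0.074, TERM vs. LAR was 0.12 in kidney and -0.36 in liver, 8 vs. 3 months in TERM liver was 0.14, LAR pancreas was 0.19 (FL vs. HGC, 3p), 0.26 (FL vs. VGC, 3p), 0.070 (HGC vs. VGC, 3p) and 0.058 (HGC vs. VGC), and pancreas exceeded liver in TERM by 3.40.

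With mouse number as a replicate block, kidney LAR FL vs. VGC was 1.27 (3p) and 0.66, HGC vs. VGC 0.58 (3p) and 0.40, and TERM HGC vs. VGC 0.068 (3p). Same-numbered libraries did not pair: 62 of 144 pairs had a correlation over 0.1, with a range of -0.61 to 0.87. The block called no strand.

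With pool as a term, over all and then over own-profile libraries, kidney LAR FL vs. VGC was 2.59 and 1.77 (3p) and 2.19 and 1.37, and HGC vs. VGC 1.28 and 0.78 (3p) and 1.48 and 0.85. Kidney TERM HGC vs. VGC was 3.10 and 3.20 (3p) and 1.30 and 1.42, and 3p in LAR pancreas was 0.43 and 0.47 (FL vs. HGC), 0.82 and 0.81 (FL vs. VGC) and 0.39 and 0.34 (HGC vs. VGC). HGC vs. VGC in own-profile LAR liver was -0.13. No strand was called. TERM vs. LAR in own-profile pancreas of 3 months was 0.62.

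Leaving out 1 library gave -7.79 to -4.72 for GAT LAR FL vs. VGC, 1.67 to 6.27 for lung LAR and -8.09 to -1.83 for lung TERM FL vs. HGC, -5.08 to -2.16 for age in TERM MAT and 2.25 to 4.38 in TERM SCAT. The kidney interaction was -0.069 to 0.57 (LAR, 3p), -0.59 to 0.60 (TERM, 3p) and -0.43 to 0.49 (TERM). Brain LAR gave -1.10 to 1.77 (FL vs. HGC), -4.04 to 0.76 (FL vs. VGC) and -5.03 to 0.92 (HGC vs. VGC), and brain TERM -4.63 to 5.67, -3.63 to 4.52 and -2.75 to 2.60.

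Counts of all miRNAs called varied between settings, from 0 to 61 for liver LAR FL vs. HGC (54 in the report's fit), 0 to 54 for FL vs. VGC (44), 0 to 83 for liver TERM FL vs. VGC (63), 0 to 60 for HGC vs. VGC (31), 0 to 34 for pancreas LAR FL vs. VGC (15) and 0 to 16 for kidney LAR HGC vs. VGC (11). The planned total of 7 RNA classes was not run and 5 were used. Age as a term could not be fitted in TERM pancreas, which has 1 age, and DESeq2 gave no adjusted p for 5p in LAR kidney by age. Settings chosen after seeing the data are the 5-class total, pool as a term, 3-month pancreas, shares within mice, the profile setting of the age interaction and of the other tissues, single left-out libraries in other tissues, the marker ratios, the likeness over own-profile libraries and the own-profile left-out fits, lung, MAT and thymus included. TERM pancreas with 4, 5 and 2 mice limits every contrast there.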
